A study of Rattus norvegicus with 21 samples.

Results

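The 48 transcripts described here were chosen by their measured levels in 5 of the 6 groups of libraries: they were close to sham in microglia of an early set of rat stroke libraries and low in microglia of a late set. They came from 30404 Ensembl transcript rows per library, of which they make up 0.158%. The working name for the group was transcripts lost late only in microglia. For the late level, the data do not bear out the word "only". Most of the 48 were also low in the libraries titled as late macrophages, set against sham microglia. Many were low in early macrophages already, with 24 at or below 0.4 of sham, so a late loss in macrophages is not shown for these. The word "lost" holds for few of the 48, so they are called here the late-low microglial transcripts, or members. Each row is 1 transcript, that is 1 spliced form of a gene, and not a gene.

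Immune cells came from the ipsilateral side of brains of adult rats (strain given as Winstar) after occlusion of the middle cerebral artery (MCAO) for 90 min followed by reperfusion, or after a sham operation in which the common carotid was exposed on the right and the external carotid was tied for good. Brains were perfused to clear blood, myelin was removed on a Percoll gradient, and cells were gated as CD11b+CD45low microglia or CD11b+CD45high blood-derived macrophages. The 24h set holds 3 libraries each of sham microglia, MCAO microglia and MCAO macrophages, and the 7D set, named from its title prefix, holds 4 of each. The labels call the replicates biological without tying them to animals, and a p-value here therefore reflects only how far these libraries spread, which may be technical. No macrophages from sham animals are among the groups, so macrophages are set against sham microglia throughout.

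Several label fields conflict with the titles, which were used for grouping. In the 24h set, the gate field of microglia replicate 3 reads CD45high and that of macrophage replicate 3 reads CD45low. All 12 libraries of the 7D set state 24h in their treatment field, and those titled as macrophages (4 libraries) carry a source name and gate of microglia. Neither the time of the 7D set nor the gate of its macrophages is therefore settled by the labels, and "7D" and "late" are used here only as names taken from the titles. Sham libraries carry a treatment field of PBS injection, while the protocol describes the sham operation above.

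Microglia are the resident macrophages of the brain. They enter the brain early in development, renew locally, survey the tissue with fine processes and hold a characteristic set of homeostatic transcripts that are reduced when they react to injury. After a stroke, monocytes enter from the blood and become macrophages inside the tissue, where their transcripts can come to resemble those of reactive microglia. The files list transcripts by identifier only, and 0 of the identifiers had a match in a table of 47357 rat genes. The members are therefore described by identifier or level, no sequence is shown, and the sorted cell types were not checked against marker genes.

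The rule worked on CPM, the reads assigned to a transcript scaled to the same total for every library, averaged over the libraries of a group and raised by 1. Of the 30404 rows, 9953 reached 6 on this scale in 7D sham, 434 of these were at or below 2/5 of sham in 7D microglia, and 74 of those lay between 2/3 of sham and 2 times sham in 24h microglia. Requiring 24h macrophages to stay under 4 times 24h sham left the 48. The members are thus 11.1% of the transcripts that were low in 7D microglia, and most of the other 386 were below the bound in 24h microglia already (346 transcripts). 7D macrophages are the only group that the rule did not use.

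Near the thresholds the rule separates similar transcripts. The member closest to the bound had a 7D microglia to sham ratio of 0.395, with means of 21.7 CPM in sham and 7.95 CPM in microglia. The nearest transcript outside it had a ratio of 0.4001, with 15.9 and 5.75 CPM. A further 26 transcripts that met all the other criteria had ratios up to 0.45, and 19 of the 48 members had ratios from 0.35 up to the bound. At the early bound, 18 members had 24h microglia at less than 0.8 of sham, the nearest inside at 0.669 and the nearest outside at 0.6666.

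Between 6923630 and 9668961 reads per library were assigned in the 24h set, and between 11115359 and 15401910 in the 7D set. At these depths 3 reads corresponded to 0.195 to 0.433 CPM. The scarcest member had a mean of 61.8 reads per 7D sham library. Correlation with the other libraries of its group was 0.934 for 7D sham replicate 3, the lowest of the 21, against 0.962 to 0.964 for the other 3 of that group. The main counts and ratios are given with and without it near the end.

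**Figure D1:**
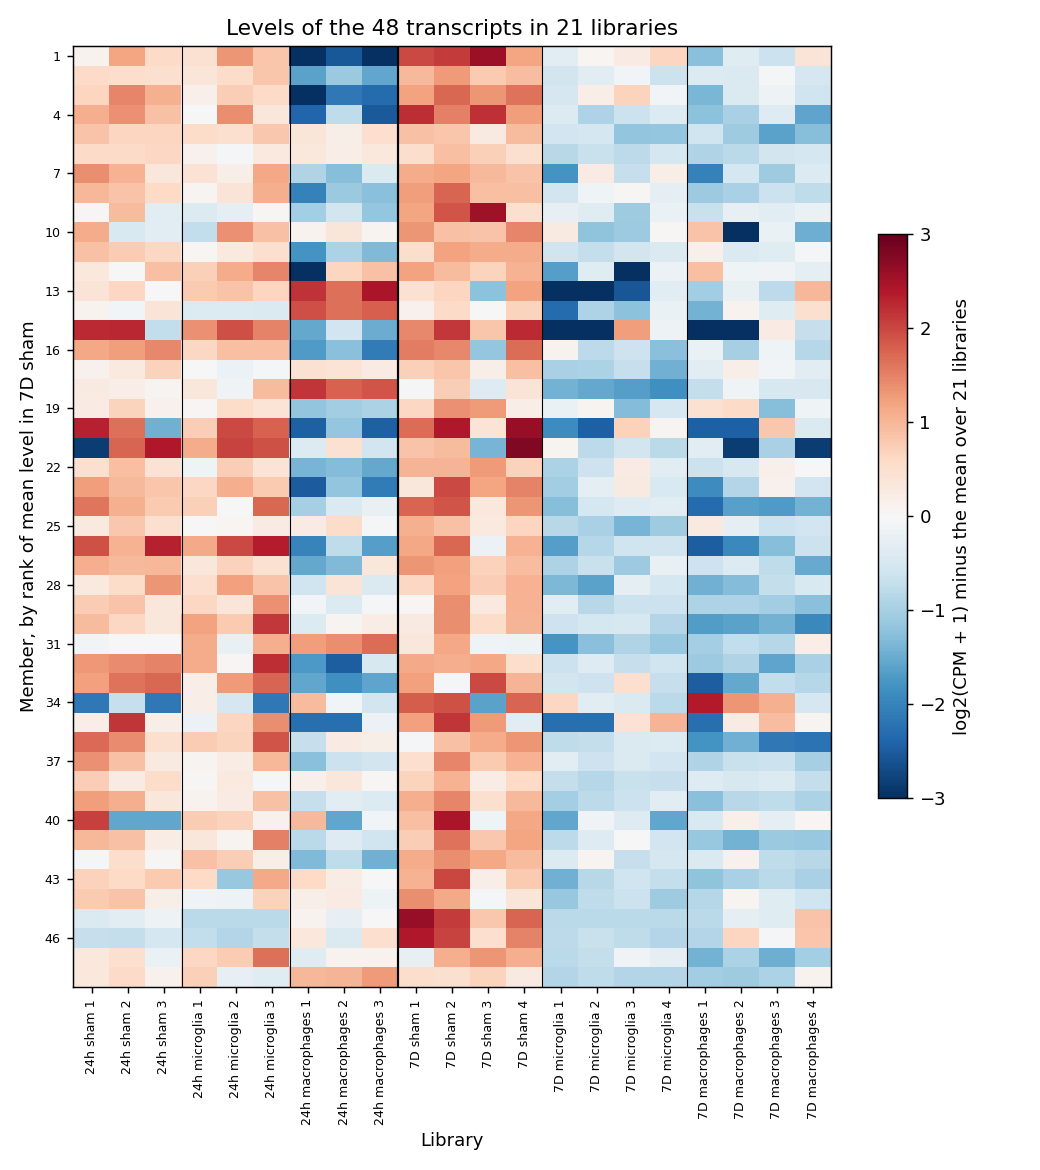
Levels of the 48 members (rows, ordered by mean level in 7D sham, the highest at the top) in the 21 libraries (columns), as log2(CPM + 1) minus the mean of that transcript over all libraries (colour, limited to between -3 and 3). The 8 columns of 7D microglia and 7D macrophages are mostly blue together, while in the 24h set the macrophage columns are blue in many rows (24 members at or below 0.4 of sham) and red in a few, among them members 13, 14, 18 and 31.

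Members differed widely in abundance. In 7D sham their means ran from 5.03 to 2402 CPM with a median of 15.75, and 5 were above 100 CPM, 31 between 10 and 100, and 12 at or below 10. The most abundant pair held 71.4% of the summed CPM of the members, so sums are given without it. Summed over the other 46, the level was 1004 ± 82.8 CPM in 24h sham and 895 ± 165 CPM in 24h microglia (SD, n = 3). The corresponding sum in 24h macrophages was 639 ± 41.8 CPM (SD, n = 3). In the 7D set it was 1230 ± 148 CPM in sham, 358.5 ± 39.8 CPM in microglia and 361 ± 18.7 CPM in macrophages (SD, n = 4). The 4 sham sums, from 1061 to 1421 CPM, lay above all 8 sums of the MCAO cells, from 302 to 392 CPM, and the sums of the 2 MCAO cell groups overlapped. These are bulk libraries, in which fewer cells of a type and less RNA per cell cannot be told apart.

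Ranked by level in 7D sham, members are referred to below as member 1 (the highest) to member 48. TPM values, which are scaled by transcript length and so allow levels to be compared between transcripts, ran from 1.70 to 2387 in 7D sham with a median of 11.6, and members 1 and 2 also led on that scale. Members had a median length of 2712 nt (range 545 to 7791), against 2193 nt for the 9953 transcripts at or above the sham bound and 2510 nt for the 386 other late-low transcripts.

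The fall in 7D microglia, which chose the members and is given as a description, was partial for nearly all of them. The ratio of 7D microglia to 7D sham (both as mean CPM + 1) ran from 0.148 to 0.395 with a median of 0.326. In 38 members all 4 microglia libraries lay below all 4 sham libraries, and in 10 the groups overlapped (background 21.9% of transcripts without overlap and lower). Only 4 members had a mean at or below 1 CPM in 7D microglia. Member 45 alone was at 0 in all 4, while its 7D sham libraries were at 9.71, 6.41, 2.05 and 4.86 CPM, a level at least 24.7-fold higher than the floor of 3 reads per library (0.233 CPM). Across all transcripts 23.2% were called lower in 7D microglia than in 7D sham, and by the same rule 41 members were, from which nothing is read because this contrast chose them.

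In early microglia the members were near sham by the rule, and these values too are a description. Relative to 24h sham, 24h microglia ratios ran from 0.669 to 1.95 with a median of 0.895, and 31 members were below 1. Members 34, 45 and 46 were at or below 1 CPM in 24h sham, where the added 1 pulls a ratio toward 1, so they met the early bounds at very low levels. Member 34 still had the highest ratio of the 48, 1.95, with means of 2.05 CPM in 24h microglia and 0.569 CPM in 24h sham. Member 46 was at 0.144, 0.129 and 0.281 CPM in 24h sham and at 0.104, 0 and 0.122 CPM in 24h microglia. Its 7D sham libraries were at 8.81, 6.48, 1.62 and 4.14 CPM, all above those of the 24h set. For these 3 members the sham level itself differed between the sets, with 7D to 24h sham ratios of 4.78 to 7.65, against a median of 1.17 over the 48. Set and title time cannot be told apart in this comparison of the sham groups.

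Of the 6 groups only 7D macrophages were not used by the rule, and their level was low for most members. All 48 had a 7D macrophage to 7D sham ratio below 1, with a median of 0.281 (range 0.112 to 0.964), and 33 were at or below the 0.4 that the rule demanded of microglia. By edgeR's quasi-likelihood test on the 12 libraries of the 7D set, adjusted over 13384 transcripts (adjusted p under 0.05), 36 members were lower in 7D macrophages than in 7D sham and 0 were higher, where 28.1% of all transcripts tested were called lower and 28.4% higher. DESeq2 and limma-voom called 38 and 39 lower and 0 higher. Of all 13384 transcripts they called 3809 and 3756 lower, and 3999 and 3875 higher. At an unadjusted p under 0.05 the edgeR counts were 40 lower and 0 higher, with no share of all transcripts computed at that threshold. The difference was at least 2-fold in 34 of the 36, and called log2 fold changes ran from -4.00 to -0.60. The median log2 fold change of the members was -2.005, against -0.03 over all transcripts tested. In 32 members the 4 macrophage libraries lay below all 4 sham libraries (background 27.8%).

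That comparison shares its sham libraries with the rule, which required a high 7D sham level, and so leans toward lower values by the choice of members. The bound on 24h macrophages also left out transcripts high in early macrophages, taking 74 rows to 48. Early and late macrophage ratios were correlated over the members (Spearman 0.62, below), so this bound may add to the lean. How far it does was not tested. The 386 late-low transcripts that were not members give a like reading: 315 of the 384 tested (82%) were called lower in 7D macrophages, with a median log2 fold change of -2.01. Among members 75% were. Another 38 of those transcripts were called higher in 7D macrophages than in 7D sham. No difference between members and the 386 was tested.

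Member 1, ENSRNOT00000001110 (1679 nt), was at 2292, 2491, 3492 and 1335 CPM in the 7D sham libraries. In 7D microglia it was at 464, 610.5, 695 and 914 CPM, and in 7D macrophages at 246, 456, 376 and 764 CPM. All 8 MCAO libraries of the 7D set were below the lowest sham library, and microglia and macrophages overlapped. The log2 fold change of macrophages against sham was -2.30 ± 0.38 (SE, edgeR adjusted p = 0.000309), a 4.94-fold lower level. In the 24h set it was at 633, 1321 and 867 CPM in sham, 799.7, 1458 and 1037 CPM in microglia, and 25.1, 98.96 and 35.4 CPM in macrophages. Early macrophages therefore held it at under 100 CPM in every library, below late macrophages, while early microglia overlapped with sham.

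Member 2, ENSRNOT00000041735 (996 nt), was at 661, 807, 575 and 639 CPM in 7D sham. It was at 229.7, 266, 316 and 215 CPM in 7D microglia and at 251, 246, 327 and 235 CPM in 7D macrophages. The MCAO groups covered nearly the same range, entirely below sham. Macrophages were 2.37-fold below sham (log2 fold change -1.24 ± 0.14, SE, edgeR adjusted p = 2.1e-05). The 24h libraries were at 499.9, 487 and 466 CPM in sham, 429, 487 and 594 CPM in microglia, and 109, 154 and 113 CPM in macrophages, so this transcript too was low in macrophages before it was low in microglia, as the titles order the sets.

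**Figure D2:**
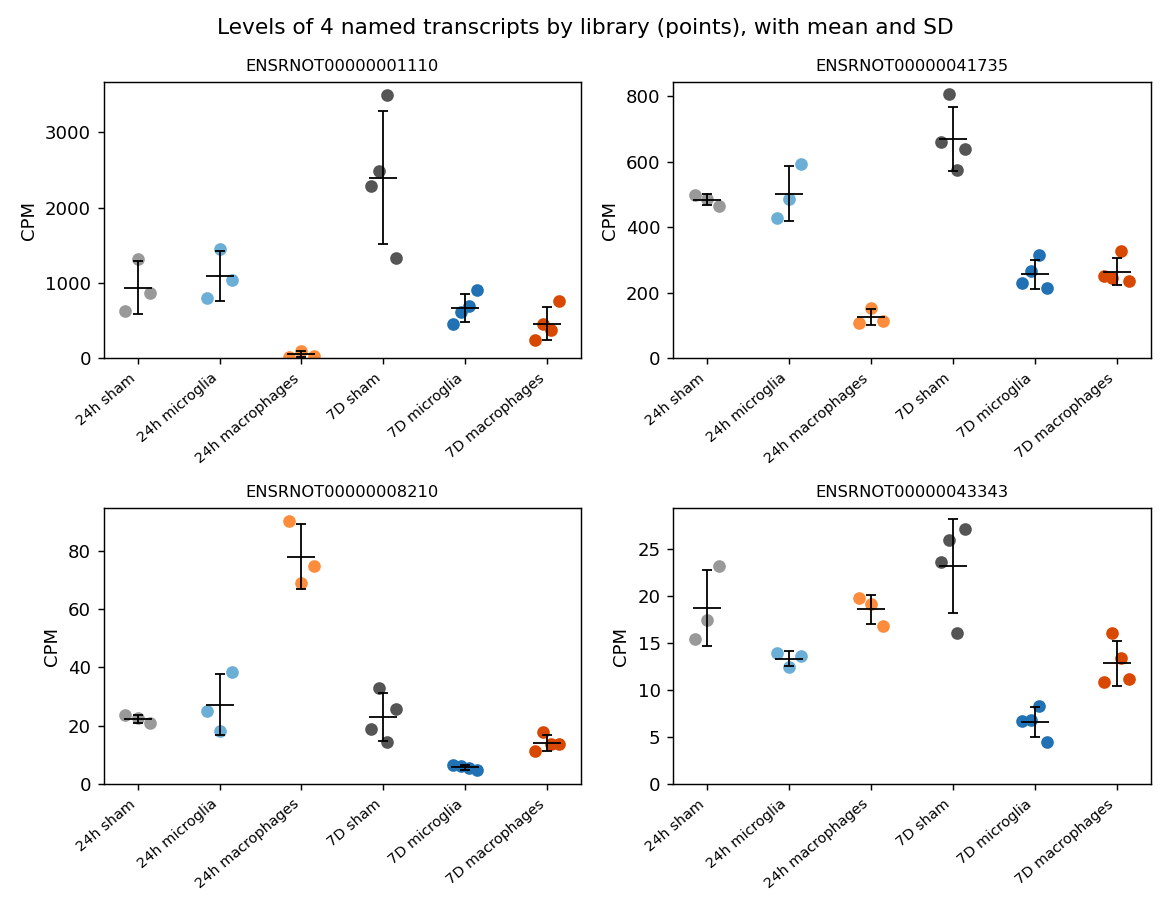
Level in CPM (linear axis from 0) of the 4 transcripts named by identifier, by group. Points are libraries, and bars are the mean and SD (n = 3 in the 24h set, n = 4 in the 7D set). The upper pair is low in both 7D MCAO groups, with 7D macrophages at 246 to 764 CPM and 235 to 327 CPM, and the lower pair is higher in 7D macrophages than in 7D microglia.

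Members 3, 4 and 5 were the others above 100 CPM in 7D sham. Member 4 was at 169.7, 103, 167 and 86.6 CPM in 7D sham, 26.8, 18.3, 22.8 and 26.7 CPM in 7D microglia, and 14.7, 17.8, 27.2 and 11.3 CPM in 7D macrophages. Member 3 had the 7D sham values 111, 161, 121 and 149.7 CPM, with 33.6, 55.1, 76.8 and 45.1 CPM in microglia and 17.8, 35.1, 43.3 and 31.1 CPM in macrophages. Neither MCAO group overlapped with sham in these 2. Member 5 was at 115, 113, 75.4 and 121 CPM in 7D sham, 41.6, 43.3, 27.0 and 27.5 CPM in microglia, and 41.2, 29.1, 19.8 and 25.2 CPM in macrophages. In 24h macrophages it was at 81.0, 70.8 and 89.3 CPM, below its sham libraries (113, 98.7 and 98.5 CPM) by only 1.23-fold, where members 1 to 4 were 3.70-fold to 17.1-fold lower. All 3 were lower in 7D macrophages than in 7D sham, with log2 fold changes of -1.99, -2.81 and -1.77 for members 3, 4 and 5 (edgeR adjusted p of 9.9e-05, 1.2e-05 and 5.8e-05).

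Because the rule chose 7D sham to be high, 7D macrophages were also set against 24h sham in a fit of all 21 libraries. The rule did not require 24h sham to be high, but used it to bound 24h microglia and 24h macrophages. The upper bounds on these groups favour a high 24h sham level, and leave out transcripts high in early macrophages. The lower bound on 24h microglia favours a low 24h sham level. This contrast is therefore not free of the choice of members, and its net lean was not tested. Here 31 members were lower and 2 were higher (edgeR adjusted p under 0.05 over 14252 transcripts), against a background of 28.4% lower and 32.1% higher. The median log2 fold change was -1.34 over members and 0.03 over all transcripts tested. Of the 36 members called lower against 7D sham, 30 were called lower against 24h sham too. The pair called higher, members 34 and 46, are among those near absent in 24h sham, and limma-voom called 0 higher (also 0 at an unadjusted p under 0.05), with adjusted p of 0.226 and 0.496 for these 2. Set and title time go with this contrast and cannot be told apart from it. Scaled by library size alone, 34 members were lower and 2 higher, and among all called transcripts the share lower was 58.3% in place of 46.9%, with the median of all transcripts moved from 0.03 to -0.16.

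Member 2 was lower than 24h sham in 7D macrophages by a log2 change of -0.68 ± 0.15 (SE, edgeR adjusted p = 0.000636). For member 1 the change was -0.83 ± 0.45 (SE, edgeR adjusted p = 0.116) and did not pass. Its 24h sham level was 940.5 ± 349.7 CPM (SD, n = 3) and its 7D sham level 2402 ± 885 CPM (SD, n = 4). It passed in 2 of 26 alternatives, without 7D macrophage replicate 4, its highest library (a log2 value of -1.24, edgeR adjusted p = 0.0276), and with scaling by library size alone (-1.03, edgeR adjusted p = 0.048). Members 3, 4 and 5 were lower in 7D macrophages than in 24h sham as well, by 2.86-fold, 3.94-fold and 3.13-fold (edgeR adjusted p of 0.000824, 0.000444 and 3e-06).

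Whether members differ between the MCAO cell groups of the 7D set is the question that the word "only" raises. Against 7D microglia, 4 members were lower and 4 higher in 7D macrophages, and 40 did not pass (edgeR), where 4.48% of all transcripts tested were called lower and 6.51% higher. Limma-voom called 1 lower and 2 higher (members 36, 17 and 18), and DESeq2 called 6 and 5. Of all 13384 transcripts, limma-voom called 558 lower and 926 higher, and DESeq2 828 and 1270. Leaving out each library in turn gave 2 to 5 members in each direction. Same-numbered libraries of these cell groups varied together. With the replicate number as a block 6 members were lower and 5 higher, where 874 and 1152 of all transcripts were. Members 3 and 47 were added to the lower, members 13 and 14 to the higher, and member 46 was lost. The choice of members leans this contrast toward higher values, because 7D microglia had to be low. The macrophage to microglia ratio had a median of 0.954 (range 0.406 to 3.33), 26 members were below 1 and 22 above, and the median log2 difference was -0.05, against -0.02 over all transcripts tested. Groups did not overlap in 14 members, 10 with macrophages below microglia (background 12%) and 4 with macrophages above (background 10.1%).

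Missing the threshold does not show that the other 40 were alike in both cell groups. Their log2 differences had a median SE of 0.42 (0.13 to 1.80), and 8 of them differed by at least 1 on the log2 scale while 22 differed by less than 0.5. For member 1 the difference was -0.49 ± 0.37 (SE, edgeR adjusted p = 0.442) and for member 2 it was 0.09 ± 0.14 (SE, edgeR adjusted p = 0.766). At an unadjusted p under 0.05 there were 8 lower and 9 higher, but the share of all transcripts at that threshold was not computed.

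**Figure D3:**
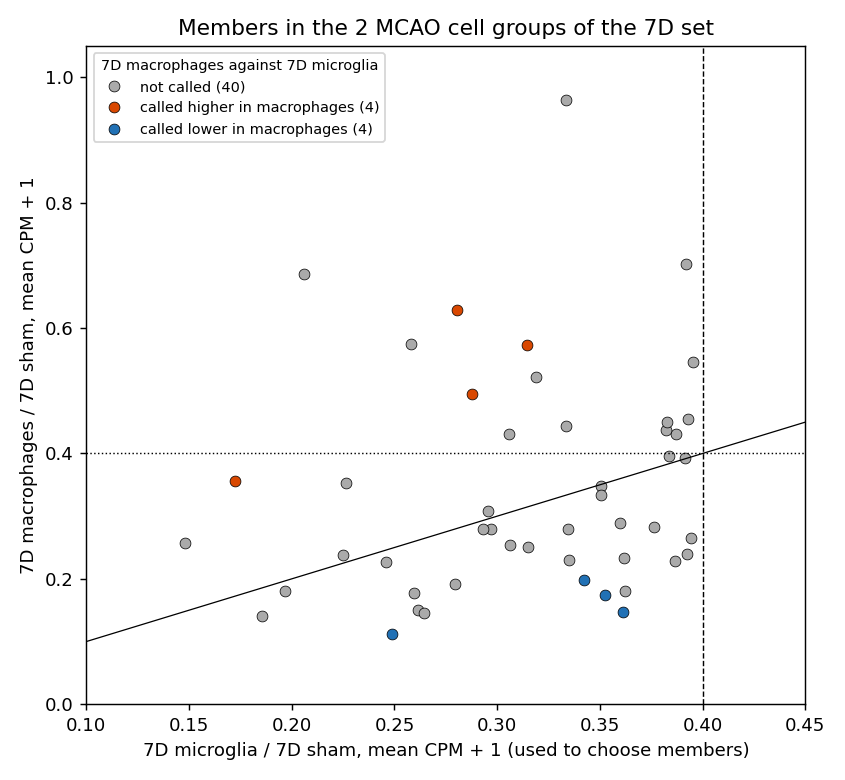
Ratio of 7D macrophages to 7D sham (vertical) against the ratio of 7D microglia to 7D sham (horizontal) for the 48 members, both from mean CPM + 1 on linear axes and both sharing the sham libraries. The dashed line is the bound of 0.4 used to choose members, the dotted line the same value for macrophages and the solid line equal ratios. Of the points, 33 lie at or below the dotted line, and colour marks the 4 members called higher and the 4 called lower in macrophages than in microglia.

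The 4 members called higher in 7D macrophages than in 7D microglia were members 17, 18, 25 and 46. ENSRNOT00000008210 (member 18, 7323 nt) was at 6.66, 6.12, 5.47 and 4.74 CPM in 7D microglia and at 11.5, 17.7, 13.6 and 13.8 CPM in 7D macrophages. The groups did not overlap, and the log2 difference was 1.35 ± 0.23 (SE, edgeR adjusted p = 0.00327). Its 7D sham libraries were at 18.8, 33.0, 14.6 and 25.9 CPM, so that 1 sham library lay within the macrophage range and the other 3 above it. Against sham, macrophages were lower by a log2 change of -0.60 ± 0.22 (SE, edgeR adjusted p = 0.035). That call was lost in 7 of 19 alternatives, over which the adjusted p ran from 0.011 to 0.13. It was lost with no filter on low counts (-0.55), and without 7D sham replicate 2 or 4, 7D microglia replicate 3, or 7D macrophage replicate 1, 3 or 4. The log2 fold change was -0.38, -0.55, -0.55, -0.46, -0.52 and -0.55 without these libraries in that order.

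ENSRNOT00000043343 (member 17, 2712 nt) was at 6.74, 6.87, 8.29 and 4.54 CPM in 7D microglia and at 10.9, 16.03, 13.4 and 11.2 CPM in 7D macrophages. Its 7D sham libraries were at 23.6, 26.0, 16.05 and 27.1 CPM. Macrophages lay between the other groups without overlap, although their highest library was just under the lowest sham library. They were higher than microglia by a log2 difference of 1.01 ± 0.20 (SE, edgeR adjusted p = 0.00833) and lower than sham by -0.74 ± 0.20 (SE, edgeR adjusted p = 0.00678).

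Member 25 followed the same order, with 4.49, 4.00, 2.73 and 3.63 CPM in 7D microglia, 10.7, 7.01, 5.24 and 5.52 CPM in 7D macrophages, and 19.3, 16.9, 11.01 and 14.3 CPM in 7D sham. None of the 3 groups overlapped, and macrophages were higher than microglia by a log2 difference of 0.98 ± 0.25 (SE, edgeR adjusted p = 0.0274). The fourth, member 46, was at 0, 1.86, 0.786 and 2.27 CPM in 7D macrophages and at most 0.151 CPM in 7D microglia. Its macrophage libraries include 1 at 0 and so overlap with microglia, and the call (edgeR adjusted p = 0.0425) rests on few reads.

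The 4 members with lower levels in macrophages than in microglia were members 24, 30, 36 and 41, and in none of them did the groups overlap. Member 24 was at 1.63, 3.40, 3.88 and 4.12 CPM in 7D microglia and 0.287, 1.04, 0.961 and 1.36 CPM in 7D macrophages, against 20.2, 22.4, 6.91 and 14.9 CPM in 7D sham. Of all members its macrophages lay furthest below sham, 16.1-fold (log2 fold change -4.00 ± 0.47, SE, edgeR adjusted p = 2.4e-05, and -4.20 without sham replicate 3). It was low in 24h macrophages too, at 2.17, 3.68 and 4.39 CPM. Member 36 was at 2.64, 2.72, 3.54 and 3.63 CPM in microglia against 0.763, 1.27, 0.375 and 0.31 CPM in macrophages, a 4.37-fold difference (edgeR adjusted p = 0.00999). Its counts were not whole in 14 libraries, those of the other 3 were whole in all. Member 30 was at 4.03, 4.38, 4.59 and 3.21 CPM in microglia and 1.43, 1.57, 1.92 and 1.04 CPM in macrophages. Member 41 was at 1.01, 1.66, 2.47 and 1.33 CPM in microglia and 0.574, 0.298, 0.612 and 0.584 CPM in macrophages. In these 2 members macrophages were 2.64-fold and 2.99-fold below microglia (edgeR adjusted p of 0.00775 and 0.0167). For all 4, the level relative to sham microglia was lower in the macrophage libraries than in the microglia libraries that chose them.

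Reading both 7D contrasts with sham side by side, 34 members were called lower in microglia and in macrophages, 7 in microglia alone, 2 in macrophages alone and 5 in neither. The contrasts share the 4 sham libraries, so the counts are not independent. Of all transcripts tested, 23.2% were called lower in microglia and 28.1% in macrophages, and the share called in both was not computed. The microglia contrast also chose the members, so the joint counts are a description only. The 7 called in microglia alone were members 12, 13, 14, 19, 31, 40 and 46. Of these 7, only member 46 was also called higher in macrophages than in microglia, and for the other 6 that difference did not pass, although members 13 and 14 passed with the replicate block.

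Macrophages of the 24h set already separated the members before the late set is considered. Early macrophages entered the rule through the bound of 4 times sham, and these values are a description. The ratio of 24h macrophages to 24h sham ran from 0.0575 to 3.39, with a median of 0.401, and 24 members were at or below 0.4. From 24h to 7D macrophages the ratio had a median of 0.917 (range 0.192 to 8.52), with 28 members below 1 and 20 above. Set and title time go with that ratio, and the difference was not tested. Of the 46 members tested, 29 were called lower and 5 higher against 24h sham (background 33.5% and 36.4%). Against 24h microglia 26 were lower and 5 higher (background 24% and 24.8%). Without the 2 libraries whose gate fields conflict with their titles 20 were lower and 3 higher, where 2257 and 1999 of 13343 transcripts were. In 30 members the macrophage libraries lay below all microglia libraries (background 27%) and in 8 above (background 31.1%).

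Divided by that early ratio, at values chosen after the data were seen, the members fell into 3 classes. The 24 members at or below 0.4 had a median 7D macrophage to 7D sham ratio of 0.246, and 20 of them were called lower in that contrast. For the 17 members between 0.4 and 1.5 the median was 0.282, and 14 were called lower. The 7 members at or above 1.5 had a median of 0.629, and 2 were called lower. Median 7D microglia to sham ratios, which the rule bounded, were 0.334, 0.315 and 0.319 in the same order. Macrophages and microglia of the 7D set stood at a median ratio of 0.78 in the first class and 2.07 in the third, where every member was above 1 (1.16 to 3.32).

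Across the 48 members, the early and late macrophage to sham ratios had a Spearman rank correlation of 0.62. The 2 ratios share no library, but both are ratios of macrophages to sham microglia quantified in the same way, and the gate of the late macrophages is not settled by the labels. The early ratio was also bounded by the rule. The early macrophage ratio and the late microglia ratio had a correlation of -0.04 over the same 48 members. The rule held the late microglia ratio to a narrow range (0.148 to 0.395), which limits any correlation with it. Nothing is read from the difference between the 2 correlations.

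**Figure D4:**
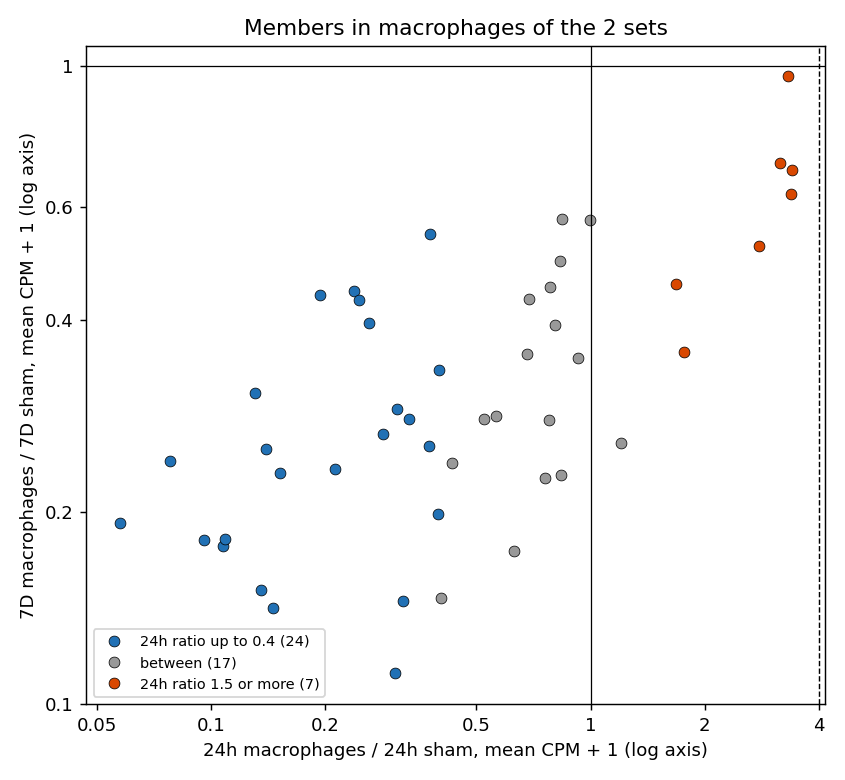
Ratio of 7D macrophages to 7D sham against the ratio of 24h macrophages to 24h sham for the 48 members, from mean CPM + 1 on log axes. Solid lines mark a ratio of 1, the dashed line the bound of 4 times 24h sham, and colours the classes of 24, 17 and 7 members. The 7 members at 1.5 or more in early macrophages lie between 0.356 and 0.964 on the vertical axis, and no member lies above 1 there.

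The 7 members high in early macrophages were members 13, 14, 18, 31, 34, 46 and 48. Member 13 was at 97.6, 68.1 and 119 CPM in 24h macrophages, against 27.7, 32.9 and 21.4 CPM in 24h sham and 37.1, 39.3 and 33.8 CPM in 24h microglia. Member 14 was at 89.9, 73.4 and 81.8 CPM in 24h macrophages, 24.4, 21.4 and 29.97 CPM in sham and 16.9, 16.9 and 16.5 CPM in microglia. In both, every early macrophage library was above every sham and microglia library. Member 18, named above, was at 90.3, 68.8 and 74.6 CPM in 24h macrophages, against 20.8 to 23.7 CPM in sham and 18.2 to 38.5 CPM in microglia. Among the members above 20 CPM in 7D sham, these 3 had the highest ratios of late macrophages to sham, 0.686, 0.703 and 0.629.

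In the 7D set the spread of members 13 and 14 was wide. Member 13 was at 29.3, 33.6, 8.37 and 50.4 CPM in sham, 1.01, 1.36, 2.73 and 16.8 CPM in microglia, and 9.68, 17.9, 11.8 and 42.8 CPM in macrophages. Member 14 was at 24.9, 34.4, 22.5 and 36.5 CPM in sham, 3.79, 11.5, 9.09 and 19.6 CPM in microglia, and 7.82, 24.4, 17.6 and 32.3 CPM in macrophages. Replicate 4 was the highest library of all 3 groups in both members. Macrophages overlapped with both other groups as a whole, but were above the microglia library of the same replicate number in all 4 pairs, in both members. The log2 difference of macrophages from microglia was 1.95 ± 0.82 for member 13 (SE, edgeR adjusted p = 0.159) and 0.95 ± 0.46 for member 14 (SE, edgeR adjusted p = 0.22), and against sham neither passed (edgeR adjusted p of 0.656 and 0.447). With the replicate number as a block, both were higher in macrophages than in microglia, by 2.30 ± 0.53 and 0.97 ± 0.26 (SE, edgeR adjusted p of 0.0234 and 0.0384).

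Member 31 was at 24.0, 26.6 and 32.9 CPM in 24h macrophages against 8.95, 9.54 and 9.71 CPM in 24h sham, and its 24h microglia libraries were split, at 21.9, 8.07 and 21.5 CPM. In 7D macrophages it was at 4.16, 5.37, 4.81 and 11.04 CPM, overlapping with sham at 12.4, 22.6, 8.62 and 8.55 CPM, and the log2 fold change of -0.93 ± 0.38 did not pass (SE, edgeR adjusted p = 0.0563). Member 48, the scarcest, was at 7.50, 7.72 and 9.32 CPM in 24h macrophages against 4.33, 5.41 and 3.66 CPM in 24h sham. In the 7D set it was at 5.19, 4.98, 5.80 and 4.14 CPM in sham and at 1.08, 1.04, 1.22 and 3.64 CPM in macrophages, without overlap (log2 fold change -1.42 ± 0.38, SE, edgeR adjusted p = 0.00696). Of these 7, members 18 and 48 passed the test against late sham. Member 46, at a ratio of 0.356, narrowly missed it (edgeR adjusted p = 0.0516), and passed without 7D sham replicate 3 (edgeR adjusted p = 0.0327).

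Member 34 was the member closest to sham in late macrophages, with a ratio of 0.964. It was at 22.0, 9.96, 8.19 and 2.13 CPM in 7D macrophages and at 14.4, 15.5, 0.444 and 13.7 CPM in 7D sham. The sham library at 0.444 CPM is replicate 3. Its 7D microglia were at 5.81, 2.46, 2.24 and 1.52 CPM, above that library, and the difference between macrophages and sham was a log2 change of 0.07 ± 0.78 (SE, edgeR adjusted p = 0.947), the only value above 0 among the 48. Without sham replicate 3 it was -0.295 ± 0.59 (SE, edgeR adjusted p = 0.687), with a ratio of 0.746. Its expected counts were not whole in 18 libraries.

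Reads that match several transcripts are divided among them by the counting program, which leaves counts that are not whole, and the level of such a transcript can move with the division alone. Counts were whole in every library (tolerance 0.001) for 33 members (68.8%, against 74.1% of the 9953 transcripts at or above the sham bound). The other 15 include members 3 and 4 and 14 that were not whole in 11 or more libraries (29.2% of members, against 20.7%). Of the 33 with whole counts, 28 were called lower in 7D macrophages than in 7D sham and 33 were called lower in 7D microglia. Of the 15 others, 8 and 8 were, so all 7 members that met the rule without passing the test in 7D microglia had divided reads.

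Member 15, for example, was at 0, 0, 18.9 and 6.39 CPM in 7D microglia and 0, 0, 8.76 and 4.12 CPM in 7D macrophages, with 21.5, 34.7, 13.8 and 37.8 CPM in 7D sham. Member 20 was at 0.465, 0, 7.77 and 4.70 CPM in microglia, 0, 0, 8.54 and 3.02 CPM in macrophages, and 16.3, 27.5, 6.18 and 32.2 CPM in sham. Both were lowest in replicates 1 and 2 and highest in replicate 3 in each MCAO group, and both had counts that were not whole in 15 libraries. Neither passed the test against sham in either cell group. Over the members, the same replicate number was highest in 7D microglia and 7D macrophages in 56.2% (27 members), against 51.8% of the 9953 transcripts, and lowest in 58.3% (28 members), against 47.2%.

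The rule named 7D sham replicate 3 as an outlying library against which members should be checked. It was the lowest of the 4 sham libraries in 24 members and the highest in 7, where 43.8% and 33.2% of the 9953 transcripts had it lowest and highest. Relative to the mean of the other 3, its ratio had a median of 0.746 (range 0.093 to 2.39), and it was below 1 in 35 members, below 0.5 in 13 and above 1.5 in 3. Sham replicate 2 was the highest library in 24 members, against 17.4% of the 9953 transcripts, with a median ratio of 1.26. The mean of 7D microglia was below replicate 3 in 45 members and the highest microglia library was below it in 41. Against replicate 3 alone, 20 members would meet the bound of 2/5. The mean of 7D macrophages was below replicate 3 in 43 members.

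**Figure D5:**
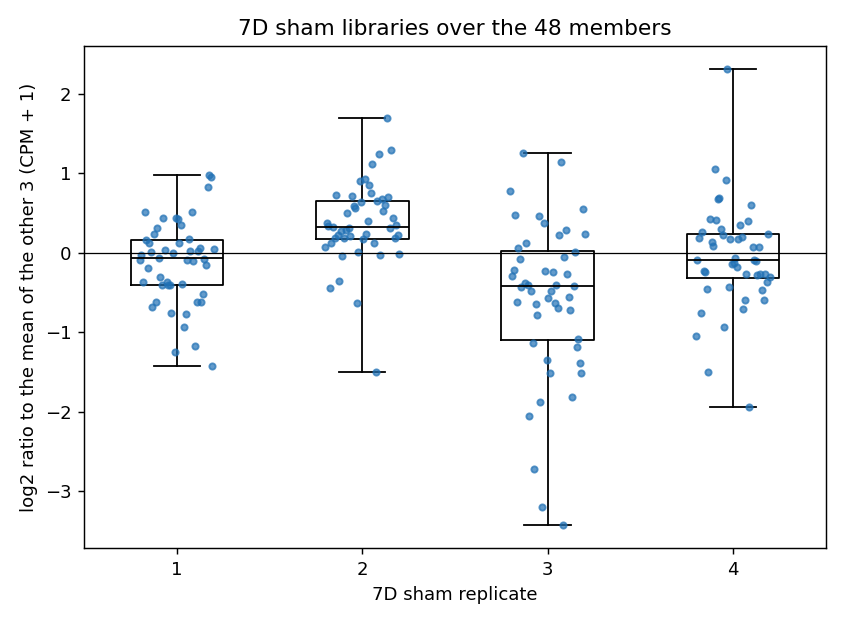
Ratio of each 7D sham library to the mean of the other 3 (CPM + 1, as log2) for the 48 members. Points are members, boxes span the quartiles with the median as a line, and whiskers reach the lowest and highest member. Replicate 3 has the lowest median (0.746 as a ratio) and the longest lower tail, and replicate 2 the highest median (1.26).

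Applied without 7D sham replicate 3, the rule gave 67 members, of which 43 are among the 48. The 5 that dropped out were members 19, 22, 33, 47 and 48. For the 48, leaving that library out moved the median ratio to 7D sham from 0.326 to 0.304 in microglia and from 0.281 to 0.265 in macrophages, whose highest ratio became 0.746. The sum over 46 members in sham became 1287 ± 118 CPM (SD, n = 3). In the fit without that library, 37 of the 48 were lower in 7D macrophages than in 7D sham, where 3841 of all 13669 transcripts were. Without sham replicate 2, 34 transcripts met the rule, 31 of them among the 48, so 17 members dropped out. Without the 2 24h libraries whose gate fields conflict with their titles, 43 transcripts met it and 36 were among the 48. Members 1, 5, 11, 12, 13, 17, 20, 23, 26, 28 and 42 met the rule under each of the 21 alternative settings tried, and 8 of these 11 were lower in 7D macrophages than in 7D sham, with 0 lower and 1 higher than in 7D microglia (edgeR).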

How the data were processed

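Each deposited file holds, per the file headers, the RSEM expected counts (estimated reads per transcript) and TPM of 1 library. The authors' processing used bcl2fastq, TopHat2 and RSEM with genome rn5, according to the submitters' processing notes; tool versions and the annotation are not given in the sources used here. Transcript lengths came from the same files. The lines for Chi3l1 and Nos2 were not used. The members and lists were chosen with earlier results of these data known.

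Levels are CPM of the 30404 transcript rows. For tests, expected counts were rounded and fitted in R 4.3.3 with edgeR 4.0.16 (quasi-likelihood test, TMM, filterByExpr at 10 reads with a total of at least 15, 1 term per group), adjusted by Benjamini-Hochberg over all transcripts tested and called at an adjusted p under 0.05. SE is the size of the log2 fold change over the root of F. Fits within a set used its 9 or 12 libraries, and the cross-set contrast all 21. The pipeline was tested on simulated counts. Replicates differed beyond counting noise in every pair (chi-square over its degrees of freedom, 5.57 to 60.4). Floors cover counting error only, while SD and SE reflect the spread between libraries.

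Same-numbered 7D microglia and macrophage libraries moved together around the means of their groups (correlation of 0.51 to 0.61 in each of 4 pairs), a pairing taken from the data and not from the labels. The pairs with sham did not (r = -0.16 to 0.31).

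The identifiers named are the 2 members with the highest mean 7D sham level without replicate 3 among those with macrophages below all sham libraries, and the 2 with the largest macrophage to microglia ratio among those without overlap. Other members described were chosen after their values were seen. The gene lists fixed for markers and pathways could not be applied without gene names. Alternatives were DESeq2 1.42.0, limma-voom (limma 3.58.1), other scaling, no filter, a replicate block, each library left out and other forms of the rule.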

Additional observations from a re-analysis of the deposited data

Results flagged for a closer look

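Within the 7D set, 35 groups of 4 libraries, from 12 of the members described, were checked for a library far from the other 3. Chance marks about 1 group in 20. In member 13, microglia replicate 4 was at 16.8 CPM, while the other 3 microglia libraries were at 1.01 to 2.73 CPM. In member 34, sham replicate 3 was at 0.444 CPM, while the other 3 sham libraries were at 13.7 to 15.5 CPM. Further members given library by library above were not checked, so this is not a full list. Among those, member 48 had 7D macrophage replicate 4 at 3.64 CPM, with the other 3 macrophage libraries at 1.04 to 1.22 CPM.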

How the results depend on the processing

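The count of members lower in 7D macrophages than in 7D sham (36) stayed between 34 and 39 in 19 of 20 alternatives. It was 34 to 37 with each library left out. With members chosen and fitted without 7D sham replicate 3 it was 47 of 67, where 3841 of all 13669 transcripts were called lower. None of the alternatives gave a member higher. Leaving out 1 library gave 34 to 67 members, and group medians in place of means gave 74. Leave-one-out counts against 7D microglia were 2 to 5 lower and 2 to 5 higher. Against 24h sham they were 26 to 32 lower and 1 to 2 higher, and for 24h macrophages against 24h microglia 21 to 27 lower and 3 to 6 higher. For 7D microglia against 7D sham they were 36 to 42. Limma-voom called 1 lower and 2 higher against 7D microglia, and 0 higher against 24h sham (also 0 at an unadjusted p under 0.05; edgeR and DESeq2 each called 2). With members and fit without 7D sham replicate 3, 8 of 67 were higher than 7D microglia and 4 were higher than 24h sham. Over all transcripts in these fits, 1477 of 13669 and 4541 of 14198 were called higher. Without both 24h libraries with conflicting gates, 3 were higher in 24h macrophages than in 24h microglia, where 1999 of all 13343 transcripts were. ENSRNOT00000041735, uncalled against 7D microglia, went from 0.09 to -0.0010 (log2) without macrophage replicate 3, with 0.22 the highest value (without microglia replicate 3). The cause of these changes was not tested. Scaling by library size alone moved the share of lower among all called transcripts from 49.7% to 56.7% against 7D sham (median log2 -0.03 to -0.13). With the replicate number as a block, 38 members were lower and 0 higher against 7D sham, where 3953 and 3988 of all 13384 transcripts were. Against 7D microglia 6 were lower and 5 higher (874 and 1152 of all transcripts). In 7D microglia 44 were lower than in sham (3333 of all transcripts). The block pairs sham libraries by number too, although the pairs with sham did not move together. With the block, no call of the 4 named transcripts changed in these contrasts. Depth limits members such as 45 and 46, some of whose 7D MCAO libraries lay at or below 3 reads (0.195 to 0.27 CPM). Library-size scaling was chosen after seeing the data.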
